A study of Mus musculus with 14 samples.

Results

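The NF-kB subunits and their feedback inhibitors are 10 genes of the 24411 gene symbols in the deposited tables. The set was chosen by gene symbol: the subunit genes Nfkb1, Nfkb2, Rela, Relb and Rel, and the inhibitor genes Nfkbia, Nfkbib, Nfkbie, Nfkbiz and Tnfaip3. Nfkbia was chosen for its rise with chromatin of neutrophil extracellular traps (NETs) in these data, so its change in that comparison is given as a description with no test. All 10 genes passed the filter on low counts in every fit.

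RNA sequencing was done on MC-38, a mouse colon cancer line, in 14 libraries. Cultured cells were either untreated (3 libraries) or given chromatin from NETs, the DNA webs that neutrophils cast out (3 libraries). MC-38 cells carrying GFP were also flow-sorted on day 30 from lung tumours in mice, 2 libraries to a group. The 4 host groups were wild-type (WT) mice without surgery, WT mice with laparotomy (surgical opening of the abdomen) on days 0 and 10, PAD4 knockout (KO) mice without surgery, and PAD4 KO mice with laparotomy on the same days. PAD4 is the enzyme that citrullinates histones during NET release. Every tumour library is labelled with a WT genotype, which is read here as that of the cancer cells, since the same labels name PAD4 KO mice as hosts. All groups share 1 tumour line, and the labels used here give no age for the hosts. Nothing in the labels states whether the libraries within a group stem from different animals or cultures. The p-values therefore reflect only how these libraries spread, which may be technical.

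NF-kB is a family of dimeric transcription factors that switch on genes of inflammation, survival and adhesion. In resting cells the dimers are held inactive by the inhibitor of kappaB (IkB) proteins. Signals from tumour necrosis factor (TNF), interleukin-1 and Toll-like receptors activate the IkB kinases, the IkB proteins are degraded and the dimers enter the nucleus. Several inhibitor genes are themselves NF-kB targets, so the pathway makes its own brake: Nfkbia encodes IkB-alpha, which returns dimers to the cytoplasm, and Tnfaip3 encodes A20, a ubiquitin-editing enzyme that acts upstream of the kinases. A slower branch works through Nfkb2 and Relb. In colon cancer the pathway is known for linking inflammation to tumour growth.

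The start of a gene's transcription is where kappaB sites of feedback genes are known to lie, and 4 promoter stretches are shown for that reason. RefSeq (build GRCm38.p6) gave a window of 250 bases before a transcription start for 7 of the 10 genes (Nfkb2, Rela, Rel, Nfkbia, Nfkbib, Nfkbie and Tnfaip3). The kappaB consensus was searched on both strands, with overlapping matches counted singly and shown as 1 run of capitals. A match was found for 5 of these 7 genes (Nfkb2, Rel, Nfkbia, Nfkbie and Tnfaip3), and 7.25% of 32817 windows of this length held one. The count is per gene and the share per window: the 7 genes have 10 windows, and 1 of those of Tnfaip3 holds no match. Nfkb2, whose matches lie before more than 1 annotated start, is not printed. Each sequence below gives the last 130 bases before the start, 5′ to 3′ on the gene's strand, with the matches in capitals. They lie at chr12:55492648-55492777 (minus strand), chr10:19015411-19015540 (minus strand), chr17:45555570-45555699 (plus strand) and chr11:23770970-23771099 (minus strand).
Nfkbia: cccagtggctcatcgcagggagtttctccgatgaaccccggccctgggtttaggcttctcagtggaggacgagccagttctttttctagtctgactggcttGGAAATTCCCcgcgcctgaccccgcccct
Tnfaip3: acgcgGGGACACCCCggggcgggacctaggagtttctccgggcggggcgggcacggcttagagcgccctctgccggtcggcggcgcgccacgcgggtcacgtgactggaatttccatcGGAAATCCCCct
Nfkbie: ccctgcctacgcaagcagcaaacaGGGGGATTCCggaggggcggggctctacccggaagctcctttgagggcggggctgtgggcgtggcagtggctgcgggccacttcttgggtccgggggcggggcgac
Rel: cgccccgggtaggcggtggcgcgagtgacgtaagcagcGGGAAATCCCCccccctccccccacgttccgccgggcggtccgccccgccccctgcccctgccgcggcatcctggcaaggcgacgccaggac
The match of Nfkbia begins 29 bases before the start. Those of Tnfaip3 begin 125 and 12 bases before it, and that of Nfkbie 106 bases before it. In Rel a pair of overlapping matches begins 92 and 91 bases before the start. A match is a description of letters and not evidence of binding.

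Library depth and cell markers bear on all values and are given first. Gene counts summed to between 6.39 and 20.6 M per culture library and between 10.8 and 31.3 M per tumour library. Levels are library-scaled counts (CPM) with TMM factors, which correct for library composition, over the 14 libraries. Markers of colon epithelium (Krt8, Krt18, Krt19, Epcam, Cdh1, Cdx2 and Vil1) were nearly absent from the cells: they summed to 0.854 to 1.70 CPM in cultures and to 1.80 to 31.0 CPM in tumours, with Cdx2 at 0 in every tumour library. The library with the most host marker RNA was WT control 2. In it, 10 pan-leukocyte markers such as Ptprc and Coro1a summed to 859.5 CPM, against 66.5 to 152.8 CPM in the other 7 tumour libraries. Its neutrophil markers summed to 580.0 CPM (5.16 to 92.0 CPM in the others) and its lung epithelial markers to 763.8 CPM (10.2 to 415.6 CPM in the others). Sorted cells are bulk samples, in which fewer cells of a type and less RNA per cell cannot be told apart.

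**Figure D1:**
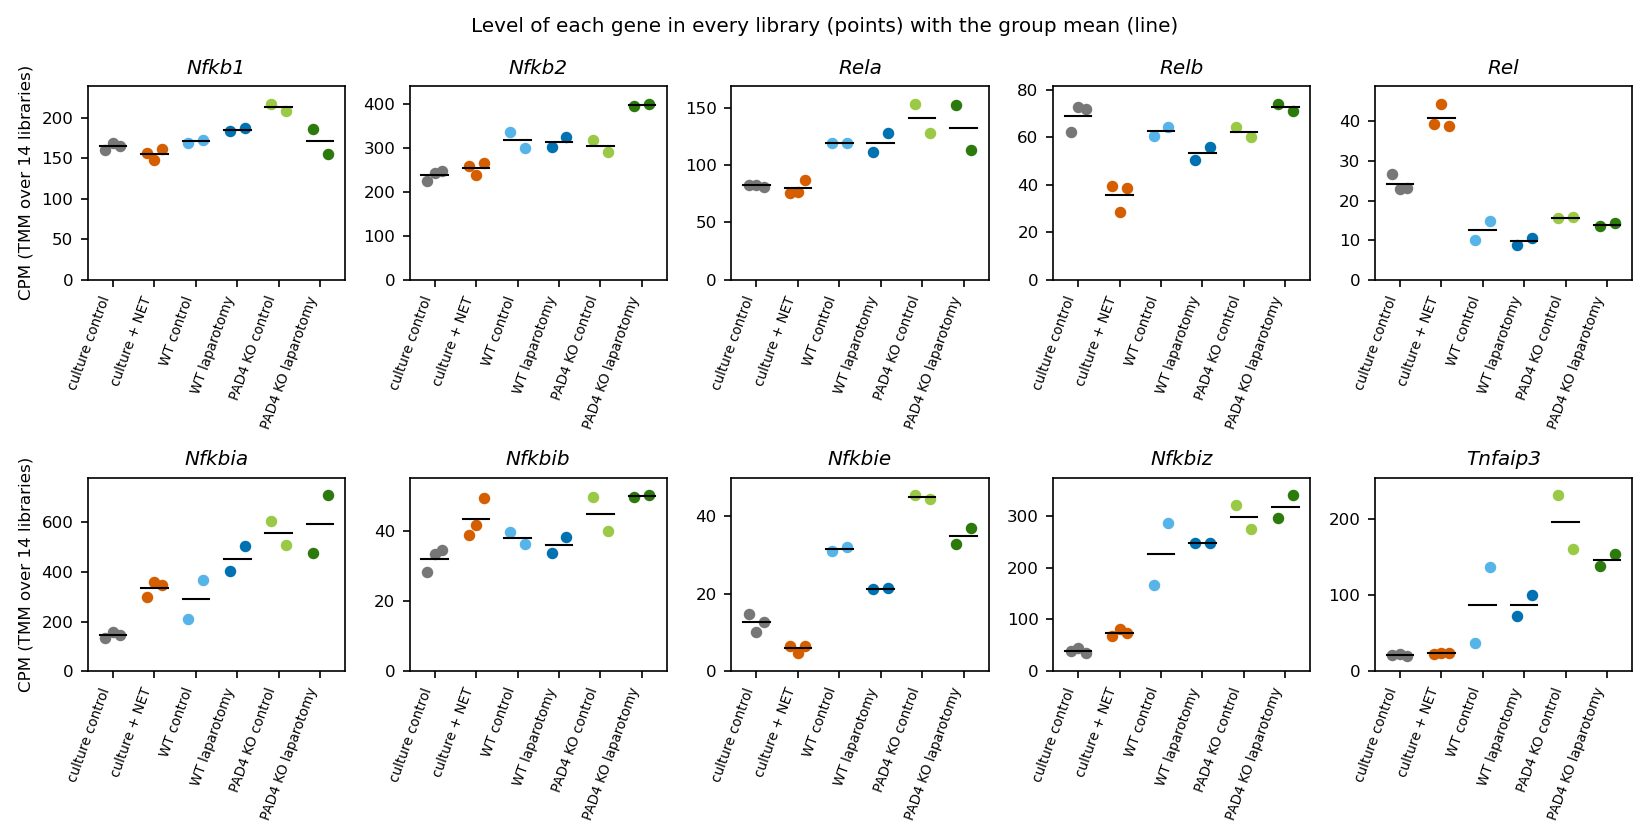
Level of each NF-kB gene in CPM on a linear axis from 0, in every library (points) of the 6 groups, with the group mean as a line. Nfkbia stands between 134 and 157 in the control cultures and between 298 and 358 with NET chromatin, and Tnfaip3 between 37.4 and 231 in the tumours.

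The first comparison was that of NET chromatin against control culture. Rel and Nfkbiz rose, Nfkbib rose by less, Relb and Nfkbie fell, and no difference passed the threshold for Nfkb1, Nfkb2, Rela or Tnfaip3. The largest change was that of Nfkbia, on which the set was chosen. Of the 9 other genes 3 were called higher and 2 lower by edgeR's quasi-likelihood test at an adjusted p of 0.05. In this comparison 54.1% of the 11753 genes tested were called, and nothing is read from the count beside that share. The median log2 fold change was -0.05 over the 5 subunits and 0.28 over the 4 inhibitors other than Nfkbia, beside 0.000673 over all genes tested.

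Among the subunits, Rel (chromosome 11, 23736847 to 23770970, GRCm38) encodes c-Rel, a transactivating subunit best known from lymphocytes. Control cultures held 26.7, 23.0 and 23.1 CPM and NET cultures 39.3, 44.5 and 38.7 CPM. All 3 NET cultures were above all 3 controls, and the log2 fold change was 0.73 ± 0.10 (SE; adjusted p = 1.2e-05). Relb (chromosome 7, 19606217 to 19629438), the transactivating partner of the slower branch, went the other way. It stood at 62.0, 72.6 and 71.9 CPM in controls and at 39.4, 28.5 and 38.7 CPM with NET chromatin, with no overlap, and the fitted change was -0.95 ± 0.10 on the log2 scale (adjusted p = 7.16e-07).

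Rela and Nfkb1 encode the subunits of the most common dimer, and Nfkb2 the precursor of the partner of RelB. Rela (chromosome 19, 5637483 to 5648130) held 82.8, 82.5 and 81.0 CPM in controls and 75.7, 76.1 and 87.0 CPM with NET chromatin. The NET libraries lay on both sides of the controls, and the log2 fold change was -0.05 ± 0.07 (adjusted p = 0.571). Nfkb1 (chromosome 3, 135584655 to 135691547) was at 161, 169 and 166 CPM against 156, 148 and 162 CPM. Nfkb2 (chromosome 19, 46304320 to 46312385) was at 225, 243 and 248 CPM against 259.8, 238 and 265 CPM. Both pairs of groups overlapped, and the adjusted p was 0.176 for Nfkb1 (log2 fold change -0.10 ± 0.06) and 0.283 for Nfkb2 (0.08 ± 0.06). These small differences depend on the scaling. When counts were scaled by library totals alone, where the median of all genes was -0.156, Nfkb1 (-0.26) and Rela (-0.21) were called lower and Nfkb2 turned to -0.07.

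Among the inhibitors, Nfkbia (chromosome 12, 55489410 to 55492647) held 134, 157 and 146 CPM in control cultures and 298, 358 and 347 CPM in NET cultures. The lowest NET culture lay far above the highest control, and the log2 fold change was 1.18 ± 0.08 (SE), or 2.27-fold. Nfkbiz (chromosome 16, 55811375 to 55838899) encodes IkB-zeta, an inducible nuclear IkB protein that assists transcription of a subset of targets. It rose from 38.2, 43.8 and 34.3 CPM to 67.7, 80.8 and 74.3 CPM, again without overlap (log2 fold change 0.92 ± 0.09, SE; adjusted p = 6.39e-07). Nfkbib (chromosome 7, 28758251 to 28767512), the gene of IkB-beta, stood at 28.2, 33.3 and 34.7 CPM in controls and at 38.9, 41.8 and 49.3 CPM with NET chromatin. The groups did not overlap and the log2 fold change was 0.43 ± 0.10 (SE; adjusted p = 0.00153).

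Nfkbie (chromosome 17, 45555703 to 45563169), the gene of IkB-epsilon, fell. Its controls were at 14.9, 10.2 and 12.7 CPM and its NET cultures at 6.38, 4.59 and 6.62 CPM. It had the lowest level per length in NET cultures, and its log2 fold change was -1.05 ± 0.17 (SE; adjusted p = 5.5e-05). Tnfaip3 (chromosome 10, 19000910 to 19015657) was at 21.6, 22.2 and 19.5 CPM in controls and at 22.5, 24.3 and 23.4 CPM with NET chromatin. Its groups lay close without overlapping, and the log2 fold change of 0.13 ± 0.10 (SE) did not pass (adjusted p = 0.279). All 5 calls were kept when any 1 of the 6 libraries was left out.

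**Figure D2:**
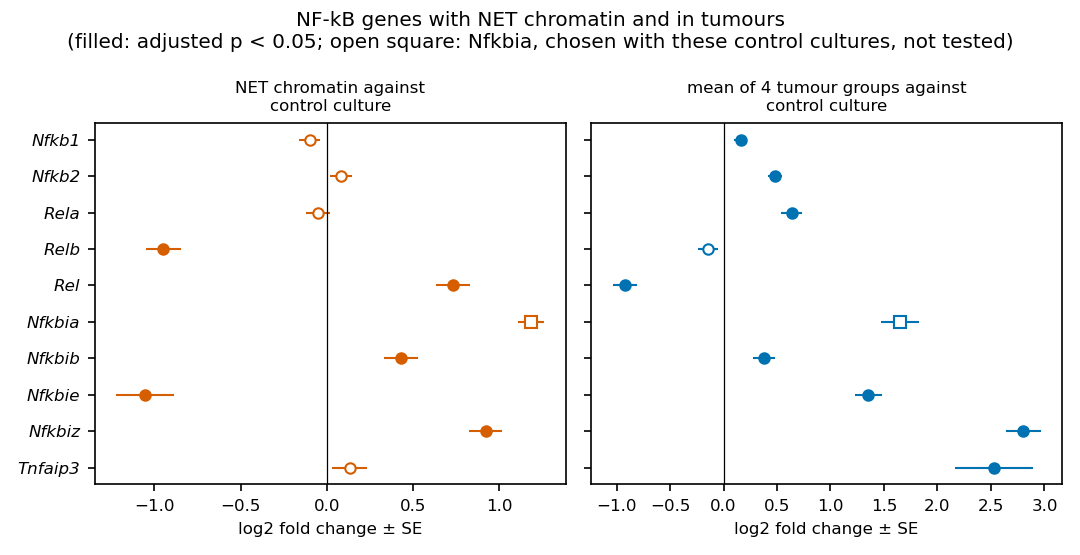
Log2 fold change with its SE for each NF-kB gene, NET chromatin against control culture (left) and the mean of the 4 tumour groups against control culture (right). Filled circles have an adjusted p under 0.05, and the open square is Nfkbia, which was chosen with these control cultures and is not tested in either panel. On the left Relb and Nfkbie lie at -0.95 and -1.05 and Rel and Nfkbiz at 0.73 and 0.92, and on the right Rel lies on the negative side and Nfkbiz and Tnfaip3 lie beyond 2.

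Leukocyte markers moved with NET chromatin too, at low levels. The 10 pan-leukocyte markers summed to 2.19 to 3.23 CPM in controls and to 13.1 to 14.3 CPM in NET cultures, and 5 of the 6 that could be tested were higher. In the same fit 54.1% of all genes were called. Markers such as Fcer1g (0 to 0.081 CPM in controls) passed the filter only through the NET cultures. The count is therefore no result about the markers. None of the 10 was at 0 in a NET culture. The 11 neutrophil markers summed to 0.388 to 1.05 CPM and to 8.76 to 11.4 CPM, of which Mmp8 made the most, up to 7.81 CPM in 1 culture, while Retnlg and Ngp were at 0 in all NET cultures. The 12 markers of monocytes and macrophages summed to 82.3 to 103.2 CPM and to 146.5 to 169.0 CPM. Cd68 made most of this in both groups, and C1qa, C1qc, Ly6c2 and Ccr2 were at 0 in all NET cultures. The part of these cells or of their RNA in the values of the NF-kB genes was not tested.

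The other genes of the pathway were read from 5 lists with 101 genes, which leave out the 10 described here. In NET cultures 27 of the 82 tested were higher and 28 lower, or 67.1% called, beside 54.1% of all genes tested. The 27 include Il33, which was known beforehand and is described below with no test. With library totals the split was 16 higher and 38 lower. The lists were not of one sign. Receptors had 2 higher and 7 lower of 12 tested, with a median log2 fold change of -0.63. Kinases and adaptors had 6 higher and 11 lower of 26 (median -0.21), other inhibitors and IkB proteins 8 higher and 3 lower of 16 (median 0.18), and target genes 10 higher and 6 lower of 26 (median 0.20). The 8 higher inhibitors dropped to 1 with library totals, to 2 without NET culture 3 and to 3 without control culture 3. Of 12 ligands only 2 were high enough to test.

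Ligands and receptors came first in the pathway. Il33, an alarmin cytokine known from earlier results of these data, stood at 0.328 to 0.466 CPM in controls and at 12.5 to 16.1 CPM with NET chromatin. At these control levels it passed the filter on low counts only through the NET cultures. Its log2 fold change of 5.12 ± 0.24 (SE) is therefore given as a description with no test. Its receptor gene Il1rl1 rose by 2.34 ± 0.07, from 103 ± 5.44 to 523 ± 15.9 CPM (SD, n = 3 each). Tnfrsf12a, the receptor of the cytokine TWEAK, rose by 0.73 ± 0.08, while the TWEAK gene Tnfsf12 had a log2 fold change of -0.42 ± 0.15 (adjusted p = 0.024). That call was lost in DESeq2 (0.0891) and without control culture 1 (0.0815), control culture 2 (0.0653), NET culture 1 (0.059) or NET culture 3 (0.0897). Both TNF receptor genes fell, with log2 fold changes of -0.92 ± 0.08 for Tnfrsf1a and -1.18 ± 0.10 for Tnfrsf1b. Ripk1, a kinase that carries the signal of TNF receptors, fell, with a log2 fold change of -1.27 ± 0.13 and levels of 18.8 ± 1.87 CPM in controls and 7.72 ± 0.76 CPM with NET chromatin (SD, n = 3 each). The adaptors Ticam1 (-1.16 ± 0.12) and Traf2 (-0.57 ± 0.07) fell and the IkB kinase subunit Chuk rose by 0.58 ± 0.07. All adjusted p of these receptor, kinase and adaptor genes were at or below 4.39e-06 in edgeR.

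Other brakes and targets were mixed as well. Rnf11, a partner of A20, rose by 0.79 ± 0.08 (SE), while the deubiquitinase gene Otud7b (-0.88 ± 0.08) and Zc3h12a (-0.95 ± 0.15), which encodes an RNase that degrades inflammatory mRNAs, fell. Cyld, another deubiquitinase gene, had a log2 fold change of 0.20 ± 0.06, which was 0.04 with library totals and lost its call there and without control culture 2 (adjusted p = 0.0504). Among targets Gadd45b, a stress response gene, rose by 1.65 ± 0.08 on the log2 scale, with 38.6 ± 3.68 CPM in controls and 123 ± 9.21 CPM with NET chromatin. The transcription factor gene Irf1 rose by 0.93 ± 0.07. The complement gene C3 (-1.09 ± 0.07) and the siderophore-binding protein gene Lcn2 (-1.28 ± 0.09) fell.

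**Figure D3:**
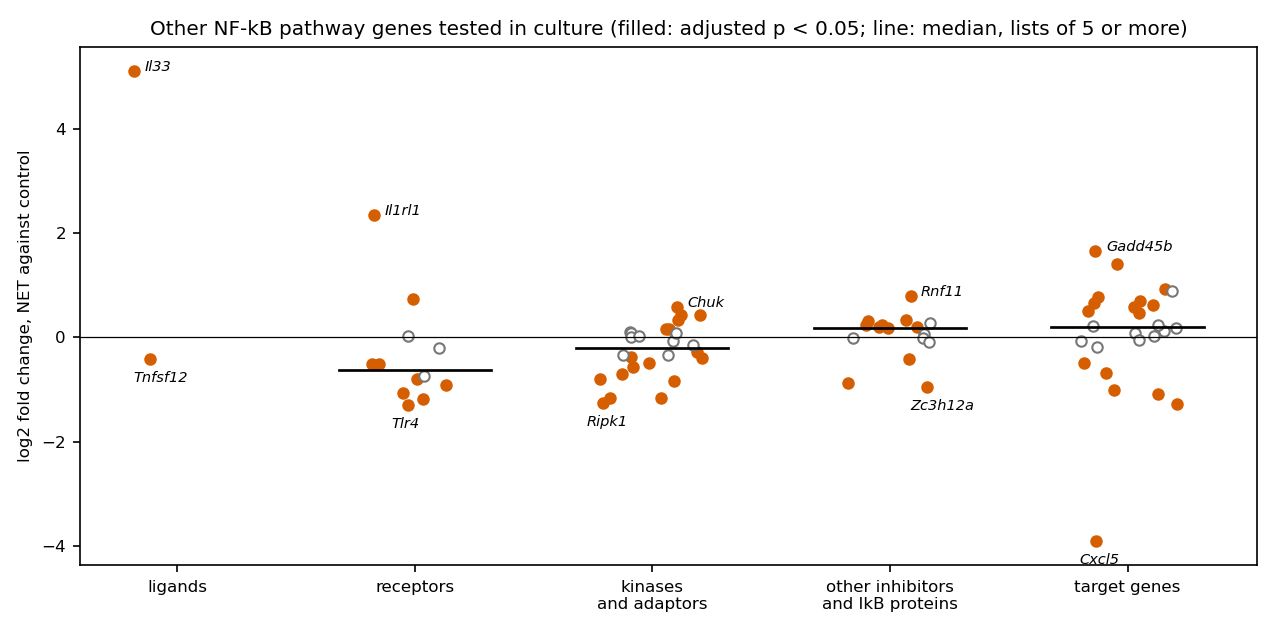
Log2 fold change with NET chromatin of each tested pathway gene other than the 10 NF-kB genes, in 5 lists. Filled points have an adjusted p under 0.05, lines are medians of lists of 5 or more, and the highest and lowest gene of each list are named. Il33 stands at 5.12 and Gadd45b at 1.65, and the receptor median lies at -0.63.

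Levels between genes were compared per kilobase of annotated exon. Nfkbia was first in all 6 groups, from 90.5 ± 7.20 CPM per kb in control cultures to 369 ± 103 in KO laparotomy tumours (SD, n = 3 and 2). Nfkb2 was second in all 6 groups, from 52.0 ± 2.63 CPM per kb in control cultures to 86.8 ± 0.89 in KO laparotomy tumours. Rel was last in the 4 tumour groups, at 1.29 ± 0.17 to 2.10 ± 0.01 CPM per kb (SD, n = 2 each). Nfkbiz was at 7.72 ± 0.95 CPM per kb in control cultures, and was the seventh of the 10. In the tumour groups it was the third, at 45.2 ± 17.0 to 63.4 ± 6.23.

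The step from culture to tumour was taken from a fit of all 14 libraries. It compares the mean of the 4 tumour groups with control culture, and sorting, host RNA and the experiment cannot be told apart from the tumour. The control cultures are those on which Nfkbia was chosen, so its step is described with no test. Of the 9 other genes, 7 were higher and 1 lower, while 73.3% of the 14421 genes tested were called. The 4 other inhibitors were all higher. The median log2 fold change was 1.94 over these 4 and 0.16 over the subunits, beside 0.06 over all genes tested.

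Nfkbiz rose most, from 34.3 to 43.8 CPM in control cultures to between 166.5 and 340.1 CPM in the 8 tumour libraries (log2 fold change 2.80 ± 0.16, SE; adjusted p = 5.78e-09 in edgeR). Tnfaip3 rose by 2.53 ± 0.36 (adjusted p = 0.000114), and its tumour libraries spread from 37.4 to 231 CPM with a median of 138, a 6.17-fold range. Nfkbia lay between 212 and 710.4 CPM in the tumours, a log2 fold change of 1.65 ± 0.18. Nfkbie, which had fallen with NET chromatin, rose by 1.35 ± 0.13 (adjusted p = 3.95e-07), to between 21.1 and 45.5 CPM. Without WT control 2, Tnfaip3 was 2.22 higher on the log2 scale and its call was kept.

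Rel, which had risen with NET chromatin, fell by 0.92 on the log2 scale (SE 0.12; adjusted p = 6.76e-06). Its 8 tumour libraries lay between 8.75 and 15.8 CPM, all below the lowest control culture at 23.0 CPM. Rela rose by 0.64 ± 0.10 (adjusted p = 3.83e-05) and Nfkb2 by 0.48 ± 0.07 (adjusted p = 1.59e-05). Nfkbib rose by 0.38 ± 0.10 (adjusted p = 0.00444). Nfkb1 was 0.16 ± 0.06 higher (adjusted p = 0.0349), a call that library totals (adjusted p = 0.0509) and the absence of a filter (0.0516) each ended. It was also lost without any 1 of 7 libraries in turn: control cultures 1, 2 and 3, WT control 2, WT laparotomy 1, KO control 1 or KO laparotomy 1. Relb had a log2 fold change of -0.15 ± 0.09 that did not pass (adjusted p = 0.165), its tumour libraries lying at 50.2 to 74.1 CPM around the controls.

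Markers of other cell types moved with this step. All 10 pan-leukocyte markers were higher in tumours, as were all 9 lung epithelial and all 7 fibroblast markers. In this fit 73.3% of all genes were called. Lung epithelial markers such as Sftpa1, at 0 in all cultures, passed the filter only through the tumours. So did the fibroblast marker Col1a2 (0.081 to 0.437 CPM in control cultures). Leukocyte markers such as Tyrobp (0 to 0.081 CPM in control cultures) were too low in the control cultures to pass it there. The counts are therefore no result about the markers. The fibroblast markers summed to 144 to 151 CPM in control cultures and to 3655 to 12020 CPM in tumours, led by Col3a1, and none was at 0 in a tumour library. Cultured MC-38 cells held some of this RNA themselves, mostly Pdgfra (85.3 CPM in control cultures), so this list does not mark host cells alone. Whether host or cancer cells made it in the tumours was not tested. The part of host RNA in the rises of the NF-kB inhibitors was not tested. Of the 99 other pathway genes tested 51 were higher and 28 lower, or 79.8% called, beside the 73.3% of all genes. Among them 6 of 10 ligands and 13 of 16 receptors were higher. Ligand genes such as Tnfsf13b (0.155 to 0.547 CPM in control cultures) passed the filter only through the tumours. So did receptor genes such as Tnfrsf11a (0 to 0.078 CPM in control cultures). These counts and the 79.8% include such genes and are no result about the lists. The ligand gene Tnfsf13b rose by 5.22 ± 0.34 and the receptor genes Tnfrsf1a and Il1r1 by 1.18 ± 0.07 and 1.68 ± 0.13 on the log2 scale. The target genes Vcam1, an adhesion molecule, and Birc3, an apoptosis inhibitor, rose by 2.07 ± 0.10 and 1.70 ± 0.13, while Tnip2, the gene of an A20-binding protein, fell by 1.08 (SE 0.08).

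The tumour groups were then compared with each other, to ask whether surgery or loss of host PAD4 went with a change of these genes. None of the 10 passed the threshold in any of the 5 comparisons by edgeR's quasi-likelihood test, fitted on the 8 tumour libraries. At an unadjusted p under 0.05 there were 1 for laparotomy in WT hosts, 3 for laparotomy in KO hosts, 3 for the difference between these effects, 3 for KO against WT hosts without surgery and 4 with laparotomy. Of all 14615 genes tested, 2753, 2293, 2803, 2388 and 1954 had such a p, in the same order, and nothing is read from the counts beside them. Over all genes edgeR called 0.0547% of the 14615 tested for laparotomy in WT hosts, 0.52% in KO hosts, 0.677% for their difference, 0.116% for KO against WT hosts without surgery and 0.0205% with laparotomy. In DESeq2, 1, 1, 0, 1 and 1 of the 10 passed the adjusted threshold in the same order, where 8.5%, 5.5%, 7.84%, 5.22% and 4.03% of all genes did. In the fit of all 14 libraries 1 of the 10 passed in each comparison, where 10.1%, 7.85%, 11.1%, 7.25% and 4.94% of all genes did. A count of 1 in 10 is near these shares and is no result about the set. Host markers were uneven between libraries as well, though edgeR called no gene of the marker lists in these comparisons. Neutrophil markers summed to 53.4 and 580.0 CPM in WT controls and to 5.16 to 7.18 CPM with laparotomy in WT hosts, and lung epithelial markers to 131.9 and 763.8 CPM against 10.2 to 20.8 CPM. KO controls held 32.3 and 415.6 CPM of lung epithelial markers and KO laparotomy tumours 84.3 to 93.4 CPM. Their part in the values of the NF-kB genes was not tested beyond the leukocyte covariate described further on. The comparisons share groups with each other (the WT controls serve as reference both for laparotomy and for KO hosts), so the values below are given side by side for each gene.

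Nfkbie had the smallest unadjusted p of the 10 genes in these comparisons (0.000584, KO against WT hosts with laparotomy). It held 31.1 and 32.045 CPM in WT controls, 21.1 and 21.5 in WT laparotomy tumours, 45.5 and 44.4 in KO controls, and 32.8 and 36.9 with laparotomy in KO hosts. No 2 of the 4 tumour groups overlapped, and in each host the laparotomy libraries were the lower. The log2 fold change with laparotomy was -0.57 ± 0.13 in WT hosts (SE; adjusted p = 0.135 in edgeR, 0.0221 in DESeq2) and -0.38 ± 0.13 in KO hosts (adjusted p = 0.208 in edgeR, 0.251 in DESeq2). The difference of the effects was 0.18 ± 0.18 (adjusted p = 0.611 in edgeR). KO against WT hosts gave 0.51 ± 0.13 without surgery (adjusted p = 0.149 in edgeR, 0.0768 in DESeq2) and 0.70 ± 0.13 with laparotomy (adjusted p = 0.111 in edgeR, 0.00577 in DESeq2). Over all alternatives run the KO against WT value with laparotomy stayed between 0.60 and 0.78, with an adjusted p from 0.00577 to 0.862.

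Nfkbia had wider groups. The WT control libraries held 212 and 369 CPM, the WT laparotomy libraries 404 and 505, the KO controls 604 and 508, and the KO laparotomy libraries 476 and 710.4. Both WT control libraries were below the other 6 tumour libraries, and the KO groups overlapped each other. Laparotomy in WT hosts gave 0.64 ± 0.30 on the log2 scale (SE; adjusted p = 0.302 in edgeR), which was 1.11 without WT control 2 and 0.29 without WT control 1. In KO hosts the value was 0.08 ± 0.30 (adjusted p = 0.932), and the difference of the effects was -0.56 ± 0.42 (adjusted p = 0.503). KO against WT hosts without surgery gave 0.93 ± 0.30 (adjusted p = 0.215 in edgeR, 0.00946 in DESeq2). That value was 1.41 without WT control 2 and 0.60 without WT control 1, not called by edgeR in either case. With laparotomy it was 0.37 ± 0.30 (adjusted p = 0.616).

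Tnfaip3 was the most uneven within a group. WT controls held 37.4 and 137 CPM, WT laparotomy libraries 72.7 and 100.3, KO controls 231 and 159.7, and KO laparotomy libraries 138 and 154. The higher WT control value came from WT control 2, the library with the most leukocyte RNA. All 4 KO libraries were above all 4 WT libraries, by a narrow margin at 137 and 138 CPM. KO against WT hosts without surgery gave 1.14 ± 0.58 on the log2 scale (SE; adjusted p = 0.392), and 2.40 ± 0.30 (adjusted p = 0.0365) without WT control 2, where edgeR called it. Leaving WT control 1 out gave 0.52 (adjusted p = 0.389). Laparotomy in WT hosts gave -0.04 ± 0.57 (adjusted p = 0.982), which turned to 1.22 without WT control 2 and was -0.67 without WT control 1, neither of them called.

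Nfkbiz also differed between the WT controls, at 166.5 and 287 CPM, where WT control 2 was again the higher. It held 248 and 247 CPM in WT laparotomy tumours, 322 and 275 in KO controls and 296 and 340.1 in KO laparotomy tumours. No comparison of Nfkbiz between tumour groups had an unadjusted p under 0.05. KO against WT hosts without surgery gave 0.39 ± 0.24 (SE; adjusted p = 0.45), which was 0.86 without WT control 2 (adjusted p = 0.0891). Nfkbib, the least variable inhibitor, lay between 33.8 and 50.2 CPM over the 8 tumour libraries, with 0.46 ± 0.15 for KO against WT hosts with laparotomy (adjusted p = 0.254).

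**Figure D4:**
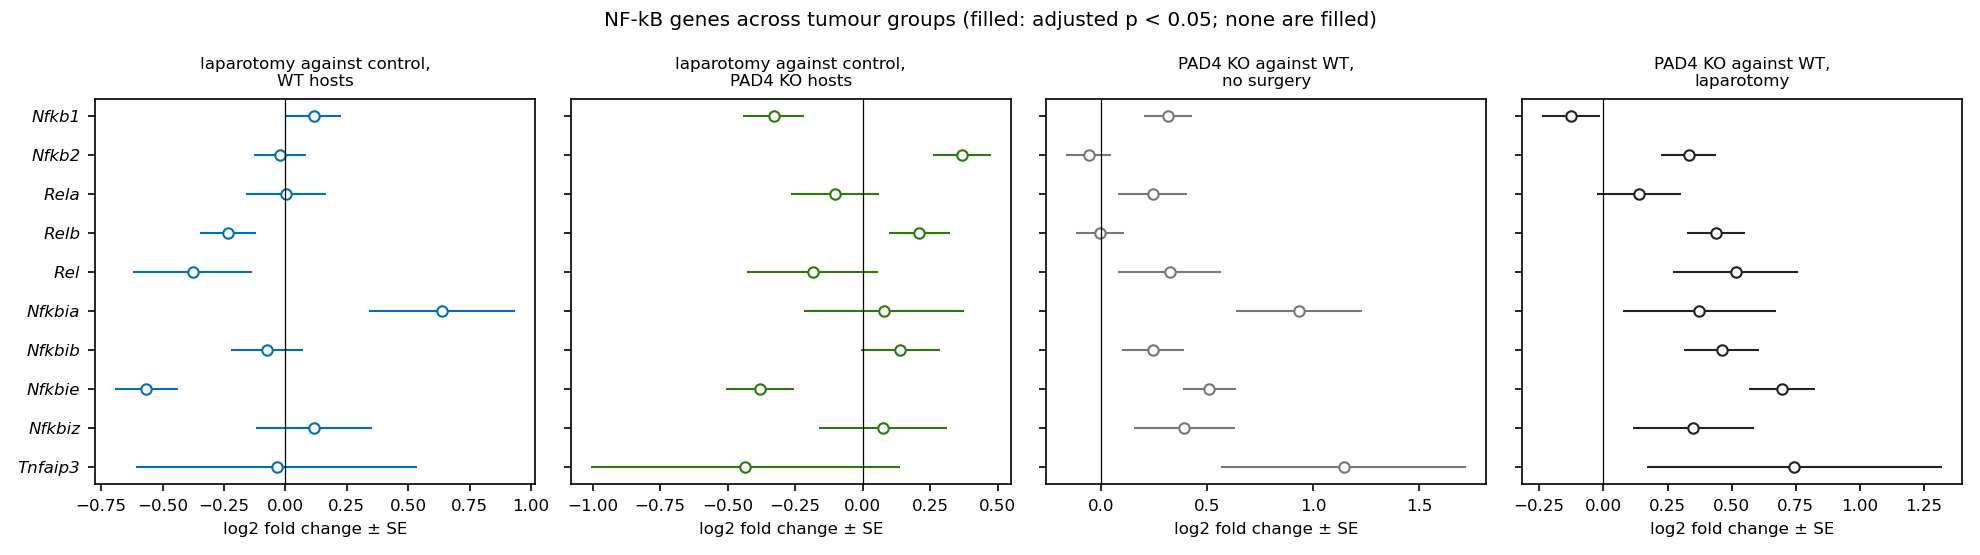
Log2 fold change with its SE (edgeR, 8 tumour libraries) of each NF-kB gene for surgery in each host type and for KO against WT hosts without surgery and with laparotomy; the horizontal scales differ between panels. All circles are open because no adjusted p was under 0.05, and the widest errors are those of Tnfaip3 (0.57 to 0.58).

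Over the 8 tumour libraries the highest value was 1.37 to 1.48 times the lowest for Nfkb2, Rela, Nfkb1 and Relb and 1.80 times for Rel. Nfkb2 held 337 and 299.8 CPM in WT controls, 301 and 325.5 in WT laparotomy tumours, 319 and 292 in KO controls and 395 and 401 with laparotomy in KO hosts. Both KO laparotomy libraries were above the other 6. Laparotomy in KO hosts gave 0.37 ± 0.11 (SE; adjusted p = 0.168 in edgeR, 0.0415 in DESeq2), in WT hosts -0.02 ± 0.11 (adjusted p = 0.939), and the difference was 0.39 ± 0.15 (adjusted p = 0.215). Relb, its partner, held 60.7 and 64.2, 50.2 and 56.1, 64.3 and 60.1, and 74.1 and 71.2 CPM in the same order of groups. Its KO laparotomy libraries were again the highest and its WT laparotomy libraries the lowest, with 0.44 ± 0.11 for KO against WT hosts with laparotomy (adjusted p = 0.18) and 0.44 ± 0.16 for the difference of the laparotomy effects (adjusted p = 0.191).

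Nfkb1 was highest in KO controls, at 218 and 209 CPM. The WT controls held 169 and 173 CPM, the WT laparotomy libraries 184 and 187, and the KO laparotomy libraries 187 and 156. Laparotomy in KO hosts gave -0.33 ± 0.11 (SE; adjusted p = 0.217) and in WT hosts 0.12 ± 0.11 (adjusted p = 0.641), and their difference was -0.45 ± 0.16 (adjusted p = 0.191). The fit of all 14 libraries called this difference (-0.43, adjusted p = 0.0479). That fit pools tumour libraries with the less variable cultures (biological coefficient of variation 0.278 in the tumour fit and 0.0633 in the culture fit). Rela lay between 111 and 153 CPM in the tumours and Rel between 8.75 and 15.8 CPM, and neither had an unadjusted p under 0.05 in the 5 comparisons. Rel was above 15 CPM only in the KO controls, and its WT laparotomy libraries were at 8.75 and 10.6 CPM.

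Group orders in the tumours show which neighbours were apart. For Nfkbie the order was KO control, KO laparotomy, WT control and WT laparotomy, with no overlap at any step, and the control and NET cultures followed below. For Nfkbia the KO laparotomy (593 ± 166 CPM) and KO control groups (556 ± 68.2) overlapped. KO control lay above WT laparotomy (454 ± 71.4) by a narrow margin, at 508 against 505 CPM, while KO laparotomy overlapped it (476 against 505 CPM). NET culture (334 ± 31.8) and WT control (291 ± 111) lay below WT laparotomy and overlapped each other (SD, n = 2 per tumour group and 3 per culture group). Control culture was lowest, at 146 ± 11.6 CPM. For Nfkb2 only the KO laparotomy group (398 ± 4.07 CPM) stood clear of the other tumour groups, which overlapped one another.

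Some of these genes varied together over the 8 tumour libraries. The correlation of log2 CPM was 0.90 between Nfkbia and Nfkbiz, 0.93 between Nfkbiz and Tnfaip3 and 0.85 between Nfkbia and Tnfaip3. Rel and Nfkbie gave 0.87, while Nfkb1 and Nfkb2 gave -0.50. The 8 libraries fall in 4 groups that share hosts and treatments, and the values are a description. With the summed pan-leukocyte markers, Nfkbia gave -0.28, Nfkbiz 0.09 and Tnfaip3 0.13. With the summed fibroblast markers, Nfkbib gave 0.81, Nfkbie 0.66 and Relb 0.65, and with lung epithelial markers Rel gave 0.62 and Nfkbie 0.55. These are the largest for those lists, picked from the correlations of the 10 genes with every marker list. Others were of like size, such as Nfkb1 with colon epithelial markers (-0.63) and Rel with endothelial markers (0.55). They are not read as links particular to a gene or cell type. When the pan-leukocyte markers were added to the tumour fit as a covariate, none of the 10 genes was called in the 5 comparisons. The number with an unadjusted p under 0.05 was then 3 for laparotomy in WT hosts and 5 for KO against WT hosts without surgery, in place of 1 and 3. The share of all genes at that p was not taken with the covariate, so nothing is read from these numbers. For laparotomy in WT hosts the values with the covariate were 1.1 for Nfkbia, 0.63 for Nfkbiz and 1.32 for Tnfaip3, which was -0.04 without it. The covariate mostly marks WT control 2, at 859.5 CPM against 66.5 to 152.8 CPM in the other 7 libraries. Leaving out that library alone gave 1.11 for Nfkbia and 1.22 for Tnfaip3. The covariate cannot tell leukocyte RNA from other traits of that library. Outside the set, the 5 genes most like Nfkbia among 10205 candidates were Ccrn4l (0.950), Tex30 (0.948), Rpl19 (0.947), Arid4b (0.931) and Wsb1 (0.931), by Pearson correlation of log2 CPM over the 8 tumour libraries.

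**Figure D5:**
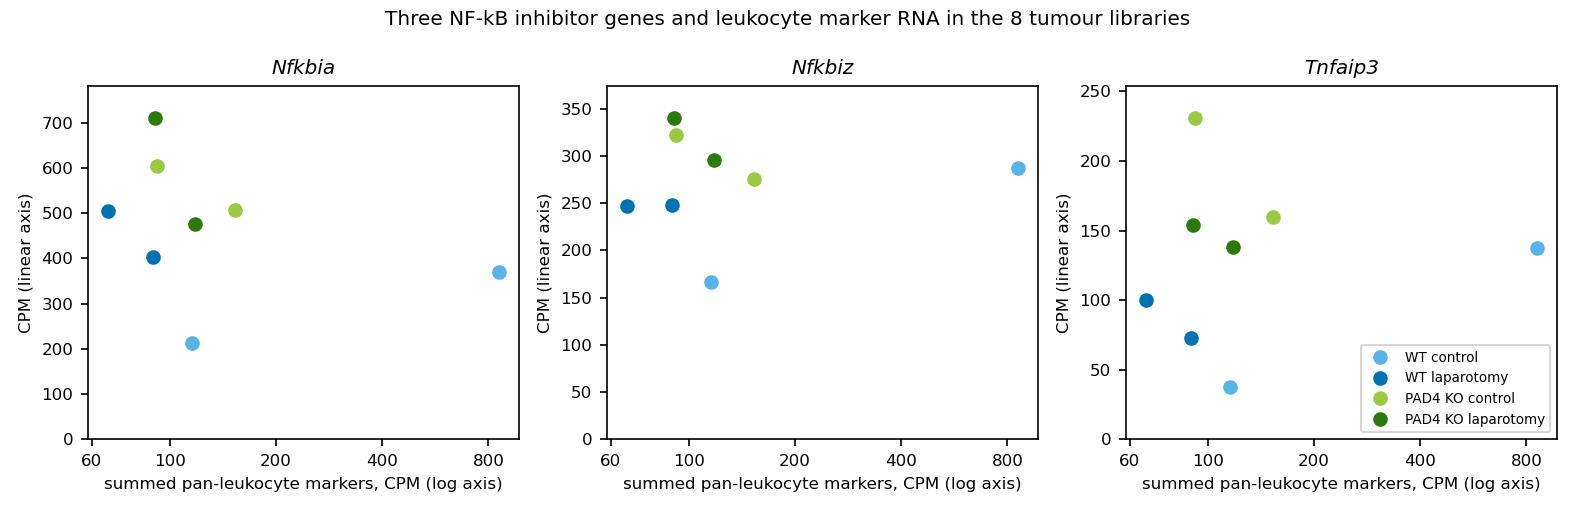
Level of Nfkbia, Nfkbiz and Tnfaip3 in CPM (linear axis from 0) against the summed CPM of 10 pan-leukocyte markers (log axis) in each of the 8 tumour libraries, coloured by group. WT control 2 lies alone on the right at 859.5, and the other 7 libraries between 66.5 and 152.8 span most of the height of each panel.

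Other pathway genes gave 4 calls in the tumours, against 98 tested in each comparison. They made 3.06% of the 98 for laparotomy in KO hosts, beside 0.52% of all genes. For KO against WT hosts without surgery they made 1.02%, beside 0.116% of all genes. With laparotomy in KO hosts the interleukin-1 receptor gene Il1r1 rose by 1.34 ± 0.18 (SE; adjusted p = 0.032), from 27.8 and 33.5 CPM to 67.0 and 89.3 CPM. Rnf11 rose by 1.21 ± 0.19 (adjusted p = 0.0426), from 136 and 144 CPM to 277 and 379 CPM. Ptgs2, the NF-kB target that encodes cyclooxygenase-2, rose by 2.95 ± 0.40 (adjusted p = 0.0431), from 137 and 194 CPM to 787 and 1791 CPM. In KO against WT hosts without surgery Irf1 rose by 1.07 ± 0.13 (adjusted p = 0.0388), from 136 and 159.7 CPM to 323 and 296 CPM. Each of these edgeR calls was lost when 1 library was left out, KO control 1 in every case. Without KO control 1 the calls over all genes were lost too, so the loss is not particular to these genes. KO laparotomy 2 ended the calls of Il1r1, Rnf11 and Ptgs2, and KO control 2 those of Rnf11 and Ptgs2. With any 1 library of the compared groups left out, the log2 fold change was 1.09 to 1.52 for Il1r1 and 0.948 to 1.41 for Rnf11. It was 2.22 to 3.42 for Ptgs2 and 0.958 to 1.2 for Irf1. With a replicate block the calls of Rnf11 (0.0736), Ptgs2 (0.0722) and Irf1 (0.0503) were lost, and with the leukocyte covariate those of Ptgs2 (0.0702) and Irf1 (0.0723). Ptgs2 was also lost without a filter on low counts (0.0935). None of the 98 was called by edgeR in the other 3 comparisons. An unadjusted p under 0.05 was held by 30 genes for laparotomy in WT hosts, 20 for the difference of the effects and 27 for KO against WT hosts with laparotomy. Of all 14615 genes tested, 2753, 2803 and 1954 had such a p in the same order. DESeq2 called 2 higher and 11 lower, 9 higher and 2 lower, and 8 higher and 0 lower in the same order, beside its shares over all genes of 8.5%, 7.84% and 4.03%.

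Reads of neighbouring genes can enter some of these counts. Nfkb2 overlaps Psd and AC114539.1 on the opposite strand, Nfkbib overlaps Sirt2 and Ccer2 on the opposite strand, and Nfkb1 overlaps Gm43430 on its own strand (GRCm38). These overlaps are of whole gene spans, introns included. With strand-specific counts the calls of the 10 genes were those given above in all 7 comparisons. Such counts cannot separate Nfkb1 from Gm43430, which lies on the same strand.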

How the data were processed

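Per the labels' protocols, total RNA of MC-38 cells was extracted with TRIzol and sequenced on Illumina libraries. The submitters' processing notes name Trimmomatic, STAR and build mm10 (GRCm38), with versions and annotation not given here. The authors deposited read counts per gene, with 24411 symbols, 3 count columns (unstranded and each strand) and 4 summary lines per library. The unstranded counts were used. Summary lines, among them reads without a feature (12.1 to 24.0%), were left out.

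The main tests used edgeR 4.0.16 (R 4.3.3; filterByExpr, TMM, estimateDisp, glmQLFit with robust estimation, quasi-likelihood test), with Benjamini-Hochberg adjustment over all genes and a threshold of 0.05. The 6 culture and 8 tumour libraries were fitted separately, and culture against tumour in 1 fit of 14. An SE is the log2 fold change divided by the square root of the F statistic. The edgeR and DESeq2 tests were also run on simulated counts, for NET chromatin and for laparotomy in WT hosts only. Those counts were drawn with the spread that the fit itself had estimated. The run therefore cannot show whether the model suits these libraries. Alternatives were RLE factors, library totals, DESeq2 1.42.0, no filter, strand-specific counts, a replicate block, a leukocyte covariate, all 14 libraries in 1 fit and leaving out each library. The genes and lists were chosen with earlier results of these data known. Named pathway genes were the 4 of each list with the smallest p for NET chromatin and the 2 for each other comparison, at a mean of at least 1 CPM; not all are printed. Genes like Nfkbia needed a mean of at least 5 CPM, and 0.5 was added to CPM before logs. Positions and exon lengths are from the GENCODE annotation of GRCm38, in which all 10 symbols were matched. No 2 libraries of a group were duplicates.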

Additional observations from a re-analysis of the deposited data

How the results depend on the processing

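Nfkbia against control culture aside, 870 log2 fold changes of the 10 genes kept their direction and side of the threshold across the alternatives, 9 lost a call (all Nfkb1, tumours against culture), 12 gained one and 1 reversed, counting as a direction only a value larger than its SE. The reversed value was Nfkb2 with NET chromatin, at -0.0749 with library totals, which also raised the genes called lower from 2 to 4. In the tumours, DESeq2 and the fit of all 14 libraries each called 1 gene in place of 0 for laparotomy in WT hosts (Nfkbie, lower), laparotomy in KO hosts (Nfkb2, higher), KO against WT hosts without surgery (Nfkbia, higher) and with laparotomy (Nfkbie, higher). The fit of 14 called 1 for the difference of the laparotomy effects (Nfkb1, lower). These calls of 1 in 10 stand beside 4.03 to 8.5% of all genes called in DESeq2 and 4.94 to 11.1% in the fit of 14. The cause was not tested. Leaving out each library gave 3 higher and 2 lower with NET chromatin throughout, 0 to 1 higher for KO against WT hosts without surgery (Tnfaip3, without WT control 2), 6 to 7 higher of 9 for tumours against culture, and 0 in the other tumour comparisons. With 1 library left in a group, it was assumed to vary like the others.

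Same-numbered libraries correlated at 0.0637, 0.0736 and -0.0262 in culture. In tumours they correlated at 0.401 for WT against KO controls and at 0.00884 to -0.137 in the other comparisons. Lung epithelial markers were higher in library 2 of both control groups (763.8 and 415.6 CPM) than in library 1 (131.9 and 32.3 CPM). The labels do not say what the numbers stand for, so they were not taken as pairs in the main fits. What the controls of 1 number share was not tested beyond a block. A replicate block left 3 higher and 2 lower with NET chromatin and 0 in each tumour comparison. For KO laparotomy against control, whose numbers correlated at -0.137, no crossed pairing was run because the labels do not tie the numbers to animals. Alternatives for the other pathway genes were chosen after seeing the data. Their calls with laparotomy in KO hosts were 7 higher and 2 lower in DESeq2, against 3 and 0 in edgeR. Over all genes DESeq2 called 5.5% there and edgeR 0.52%. Group size and depth were not compared as limits.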
